A study of Mus musculus with 81 samples.

Results

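A group of 10 immediate early genes was followed through RNA-seq libraries of mouse macrophages with a myeloid deletion of the histone H3.3 genes and of their controls. They were the zinc finger factors Egr1, Egr2 and Egr3, the AP-1 subunits Fos, Fosb, Jun and Junb, the related bZIP factor Atf3, the orphan nuclear receptor Nr4a1 and the small nuclear protein Ier2. They were taken by gene symbol from the gene counts of each library, and all 10 were among the 54079 genes that every table listed. The members were chosen from the log2 fold changes of one comparison of H3.3-deficient with control cells, called set 2 here, in which Egr2 was the largest fall. The values of set 2 are therefore given as a description, with no test, and the other comparisons carry the tests. The double KO comparisons are not free of this choice, since the cKO libraries of set 2 are part of their reference.

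Immediate early genes are transcribed soon after a growth factor, cytokine or stress signal reaches a cell, from factors that are already present and without new protein synthesis. MAP kinase signalling acts on them through serum response factor and its partners, which bind CArG boxes, and cyclic AMP and stress signals act through CREB and ATF factors, which bind sites with the letters TGACG. In macrophages Egr1 and Egr2 are known from monocyte differentiation, Egr2 also from the response to interleukin 4, and Fos and Jun proteins pair as AP-1 at many inflammatory and colony stimulating factor responsive genes.

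WT mice carried floxed alleles of both H3.3 genes (H3f3a and H3f3b, each fl/fl), and H3.3cKO (cKO) mice carried the same alleles with LysM cre/cre. The cre sits in both copies of Lyz2, so that cKO cells also lose the product of that gene, and it acts in myeloid cells. Mice were on a C57BL/6 background, male and female, and 8 to 10 weeks old. Bone marrow-derived macrophages (BMDMs) were grown for 6 to 8 days in medium with 20% L929-conditioned medium, the source of colony stimulating factor 1. WT and cKO cells were compared on days 3, 5 and 7 of culture, on day 8 with and without 12 hours of interferon gamma (IFNγ), and in peritoneal macrophages. They were also compared in cultures left without antibody or given a control antibody or an antibody to the type I interferon receptor subunit IFNAR1 at 10 µg/mL from the start of culture to day 6. Fresh antibody was added every 12 hours, and the methods do not say whether cultures without antibody were handled alike. A last experiment held 3 sets of WT and cKO BMDMs and cKO BMDMs that also lacked Sting (StingDKO), Mavs (MavsDKO) or Irf7 (Irf7DKO). The labels give no culture day for that experiment and do not say which set belongs to which double KO, so each double KO was compared with the cKO libraries of all 3 sets together.

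The 81 libraries held 3614967 to 45581528 counts on genes, and 79 of them were placed in 27 groups, 25 groups of 3 and 2 groups of 2. Both libraries that stayed out were day 8 cKO cells whose title and library name disagree on IFNγ. H3f3a was at 33.6 to 93.8 CPM (reads on the gene scaled to a fixed library total) in WT and at 1.21 to 15.3 CPM in cKO libraries. H3f3b was at 149 to 361 CPM in the cKO libraries outside the antibody experiment, against 181 to 536 CPM in WT, and at 16.7 to 67.8 CPM in the cKO libraries of that experiment. The cKO and WT ranges of H3f3b overlapped in each of the other 4 experiments, and the study states that its deletion varied between cKO samples. Lyz2 lay at 4465 CPM or more in every WT library and at 81.9 CPM or less in every cKO library. Peritoneal libraries carried 28427 to 35282 CPM on 8 peritoneal macrophage markers, against at most 210 CPM in any BMDM library. Their 8 stromal markers summed to 20895 to 57965 CPM, most of it Fn1, a matrix gene, while Col1a1, Col1a2, Col3a1 and Lum were each at 12.0 CPM or less there. The cKO day 8 IFNγ library of replicate 1 stood apart, with the lowest total and 1304 CPM on 8 macrophage markers against 4738 CPM in replicate 2 of that group. No pair of replicates was alike enough to be one library deposited again.

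The bases before the transcription start are shown for 4 members on which the results turn, as the place where the signals named above are read out. RefSeq windows (GRCm38.p6) were found for 7 of the 10 members. Egr1, Egr3 and Ier2 were not in the table of windows used here. Each run is the 120 bases before one start, 5′ to 3′ on the gene's strand, and lies in no annotated exon. Capitals mark the CArG box and each TGACG or, on the other strand, CGTCA.
Egr2, chr10:67537749-67537868, plus strand: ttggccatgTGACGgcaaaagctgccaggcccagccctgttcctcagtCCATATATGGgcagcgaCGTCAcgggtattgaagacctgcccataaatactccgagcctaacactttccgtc
Fos, chr12:85473770-85473889, plus strand: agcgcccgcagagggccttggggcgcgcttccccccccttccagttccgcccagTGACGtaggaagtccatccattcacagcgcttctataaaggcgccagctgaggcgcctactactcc
Nr4a1, chr15:101266726-101266845, plus strand: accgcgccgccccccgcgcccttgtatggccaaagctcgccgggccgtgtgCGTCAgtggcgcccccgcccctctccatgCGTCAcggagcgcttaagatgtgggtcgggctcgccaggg
Junb, chr8:84978749-84978868, minus strand: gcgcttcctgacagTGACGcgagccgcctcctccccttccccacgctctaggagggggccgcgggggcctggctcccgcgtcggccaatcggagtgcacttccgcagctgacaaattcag
In the 250 bases before the starts, TGACG was found on either strand in 6 of the 7 members, all but Jun, and in 19.8% of 27025 genes. A CArG box was found in 1 of the 7, Egr2, where it covers bases 72 to 63 before the start, and in 1.62% of all genes. The AP-1 letters TGACTCA or TGAGTCA were in none of the 7 and in 5.16% of genes. An EGR site, GCGGGGGCG or GCGTGGGCG on either strand, was in 2 of the 7, Fosb and Nr4a1, and in 3.47% of genes. TGACG and TGACTCA start alike but then differ, so no stretch counts for both from the same base. These are matches of letters in one window and not sites shown to be bound.

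Egr2 (ENSMUSG00000037868), which directs macrophage differentiation and was picked for its fall, had 55.2, 56.8 and 53.4 CPM in the 3 WT libraries of set 2 and 2.56, 3.63 and 3.18 CPM in the cKO libraries. Its log2 fold change there was -4.14, the largest of 1606 ranked falls, and the next were Ccr3 at -3.55, Scd2 at -3.11 and Atp6v0d2 at -3.01. The WT level of set 2 was itself high: the other WT BMDM libraries of that experiment had 6.75, 11.1, 7.40 and 8.25 CPM, apart from the number 1 libraries of sets 1 and 3 at 36.1 and 44.4 CPM. The cKO level of set 2 lay below all cKO libraries of sets 1 and 3, which held 4.25, 4.79, 5.91, 6.02, 13.6 and 17.3 CPM. Egr1 went from 34.2, 31.8 and 43.8 CPM in WT to 8.14, 11.5 and 9.18 CPM in cKO in set 2, a log2 fold change of -1.93, and Egr3 had -1.42. The other members of set 2 lay between -0.45 for Fosb and 0.31 for Nr4a1. The groups of 7 members did not overlap. Over the 18083 genes tested there the shares were 44.5% without overlap and 21% past the threshold, from which nothing is read since set 2 chose the members.

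Egr2 was lower in cKO than in WT cells in 10 of the 11 comparisons outside set 2, passed the test in 1 and had groups that did not overlap in 5. Those 5 were day 5, day 8 untreated and with IFNγ, no antibody and the control antibody. In them 26.5 to 39.4% of all genes tested did not overlap either. On day 3 it had 3.68, 2.46 and 3.93 CPM in WT and 3.52, 1.98 and 1.88 CPM in cKO. The groups overlapped. On day 5 WT libraries had 2.09, 3.26 and 3.20 CPM and cKO libraries 0.651, 1.86 and 1.67 CPM, and on day 7 they had 1.67, 4.20 and 3.77 CPM against 1.18, 1.46 and 2.20 CPM. All cKO values lay below all WT values on day 5, and WT replicate 1 fell among the cKO values on day 7. Log2 fold changes were -0.45 ± 0.41 (SE), -1.02 ± 0.42 and -0.98 ± 0.42, with adjusted p of 0.57, 0.27 and 0.25 in edgeR's quasi-likelihood test.

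On day 8 Egr2 was at 4.28, 8.18 and 6.65 CPM in untreated WT and at 3.25 and 3.03 CPM in untreated cKO libraries. After IFNγ it was at 3.11, 3.42 and 4.22 CPM in WT and at 2.41 and 1.88 CPM in cKO libraries. Neither pair of groups overlapped, and the folds were -1.02 ± 0.30 (adjusted p = 0.32) and -0.82 ± 0.39 (adjusted p = 0.23). Peritoneal macrophages held little Egr2, with 0.450, 0.284 and 1.82 CPM in WT and 0.556, 0.897 and 0.650 CPM in cKO libraries, and these overlapped.

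In cultures without antibody, Egr2 fell in cKO cells, from 26.6, 30.5 and 33.0 CPM to 9.81, 11.7 and 13.5 CPM, with a log2 fold change of -1.36 ± 0.40 (edgeR, adjusted p = 0.049). This was rank 77 of 452 ranked falls of that comparison. The call passed by a small margin: it was kept without WT replicate 1 and lost without each of the other 5 libraries, at adjusted p of 0.11 to 0.15 and folds of -1.48 to -1.25. With the control antibody the WT values were 10.9, 13 and 10.9 CPM and the cKO values 4.66, 6.51 and 6.74 CPM, again without overlap (-0.99 ± 0.42, adjusted p = 0.24). With the IFNAR1 antibody the order was mixed, 55.4, 33.8 and 24.4 CPM in WT against 48.0, 83.9 and 17.9 CPM in cKO, and this was the one comparison with a higher fitted value in cKO (0.40 ± 0.38). In sets 1 and 3 the folds were -0.96 ± 0.63 and -1.33 ± 0.63 with overlapping groups. They rested on the number 1 WT libraries: without that of set 1 the fold in set 1 was 0.07, and without that of set 3 the fold in set 3 was 0.04.

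**Figure D1:**
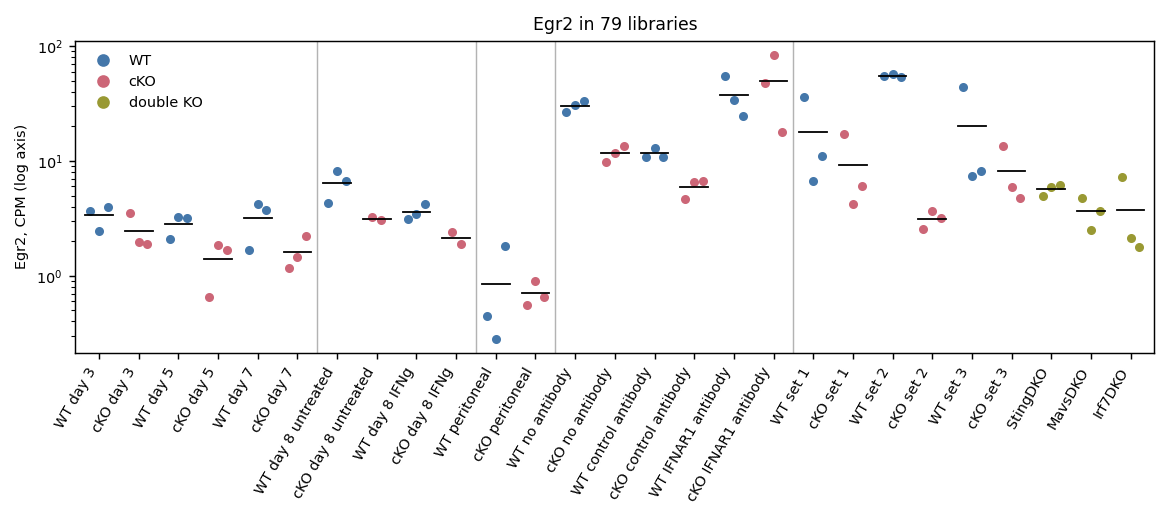
Egr2 in CPM (log axis) in each of the 79 placed libraries, by group, with WT in blue, cKO in red and double KOs in olive; points are libraries, bars are group means and vertical lines part the 5 experiments, which were scaled separately. The 3 WT libraries of set 2 sit at 53.4 to 56.8 CPM and its cKO libraries at 2.56 to 3.63 CPM, and the other libraries outside the antibody experiment lie between 0.284 and 44.4 CPM.

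Levels of the 10 genes can be ordered only per length, as CPM per kb of exon, and only within an experiment, since the 5 experiments were scaled separately. Over the 6 groups of the day 3 to day 7 culture the group means of Atf3 (40.7 to 107), Junb (43.0 to 82.6) and Jun (45.7 to 75.2) overlapped and were the highest, followed by Fos (17.3 to 49.0) and Ier2 (14.8 to 24.1). Nr4a1, Egr1, Egr2, Egr3 and Fosb lay between 0.0518 and 1.88, each overlapping the next in that order. In the antibody experiment Fos (347 to 812) and Junb (231 to 569) came first, with overlapping ranges, and Fosb, among the lowest in the other 4 experiments, stood at 30.8 to 181. Peritoneal macrophages had Junb first (78.2 to 82.0), Ier2 second (56.2 to 63.7) and Jun at 4.27 to 6.08. The antibody cultures also differ from the other BMDMs in being lysed directly in Trizol on day 6, and handling, day and experiment cannot be told apart. Their share of reads outside annotated genes was 21.1 to 28.9%, against 10.9 to 19.4% in the sets.

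The time course asked how gene expression moved while WT and cKO progenitors matured. Fos, the inducible AP-1 subunit, fell in WT cells between days 3 and 7, from 139, 82.5 and 125 CPM to 68.0, 18.8 and 35.1 CPM, a log2 fold change of -1.50 ± 0.36 (edgeR, adjusted p = 0.0089). Jun, its main partner, fell from 228, 219 and 228 CPM to 157, 126 and 154 CPM (-0.63 ± 0.14, adjusted p = 0.0051). Ier2, a serum-induced nuclear protein, fell from 30.0, 40.7 and 36.1 CPM to 16, 26.6 and 25.1 CPM (-0.66 ± 0.21, adjusted p = 0.035). No day 7 value of these 3 genes reached a day 3 value, and 34.9% of all genes did not overlap between these days in either direction. Of the 10 members 3 thus passed, all lower, while 11.7% of the 15955 genes tested passed in that direction. Ier2 lost its call without WT day 3 replicate 2 (adjusted p = 0.12), WT day 3 replicate 3 (0.076) or WT day 7 replicate 1 (0.093), and Fos and Jun kept theirs without any one library.

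In cKO cells all 10 members had negative fitted values from day 3 to day 7, and none passed the edgeR test, against 14% of all genes. At an unadjusted p under 0.05 there were 3, and DESeq2 called 1, Ier2. Fos was at 76.9, 96.5 and 92.3 CPM on day 3 and at 100, 44.1 and 49.2 CPM on day 7, so that the groups overlapped. Atf3, a stress-induced repressor, was at 203, 253 and 239 CPM on day 3 and at 187, 108 and 121 CPM on day 7, without overlap (-0.74 ± 0.31, adjusted p = 0.13). With the replicate number as a block, Atf3 fell by 0.82 on the log2 scale (adjusted p = 0.027). Same-numbered cKO libraries deviated alike, but the block was shared with the WT libraries, which did not pair across days. The intervals from day 3 to 5 and day 5 to 7 gave no member in either genotype (background 2.64% and 0.238% in WT, 3.59% and 0.0564% in cKO), with 2 and 3 members in WT and 0 and 1 in cKO at an unadjusted p under 0.05 and none by DESeq2. Neutrophil markers moved too, at 1434 to 2933 CPM in WT and 2639 to 3743 CPM in cKO libraries on day 3 against 82.2 CPM in the lowest library of the experiment, and their part in these values was not tested. In bulk libraries such as these, fewer cells of a type and less RNA per cell cannot be told apart.

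Between genotypes, no member passed on day 3, 5 or 7, against 7.73%, 2.83% and 1.40% of all genes (edgeR). The counts at an unadjusted p under 0.05 were 1, 2 and 2, and DESeq2 called none. Egr3, the third of the Egr family here, was at 0.886, 1.35 and 0.842 CPM in WT and at 3.90, 2.74 and 2.09 CPM in cKO on day 3, without overlap, a fold of 1.49 ± 0.64 on few counts (adjusted p = 0.18). Atf3 was at 194, 123 and 165 CPM in WT and 203, 253 and 239 CPM in cKO on day 3, and at 95.0, 87.1 and 80.6 CPM against 235, 115 and 131 CPM on day 5 (0.87 ± 0.31, adjusted p = 0.19). Atf3 did not overlap between genotypes on either day. The change of the genotype difference from day 3 to day 7 passed for none of the 10 members and for 0.0439% of genes, with 0 members at an unadjusted p under 0.05 and 0 by DESeq2.

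**Figure D2:**
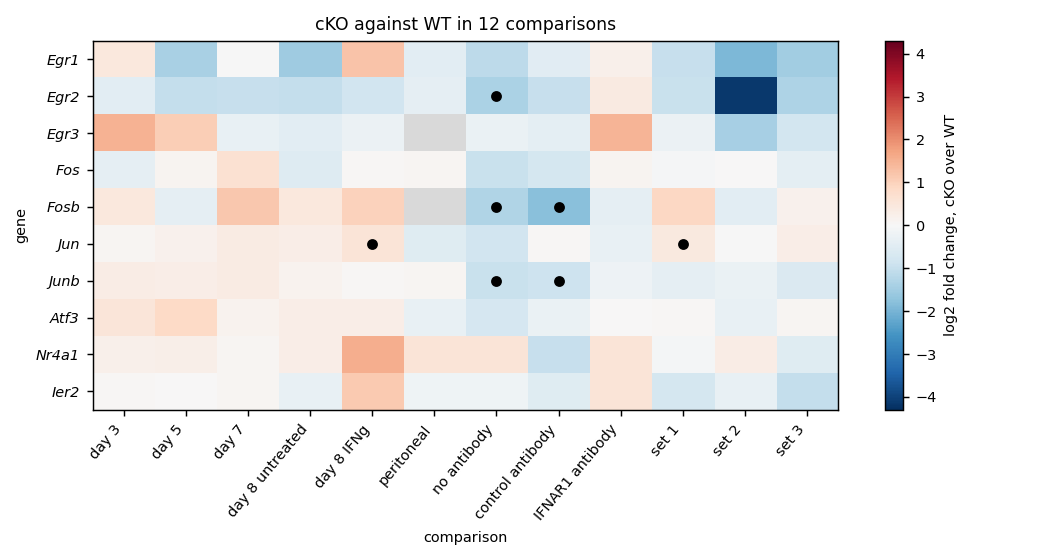
Log2 fold change of cKO over WT for the 10 genes (vertical) in 12 comparisons (horizontal), red higher and blue lower in cKO; black dots mark an adjusted p under 0.05 in edgeR, grey cells were not tested, and set 2 carries no marks because it chose the genes. Egr2 is blue in every column but that of the IFNAR1 antibody, and the deepest cell is Egr2 in set 2 at -4.14.

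IFNγ, the cytokine that primes macrophages against intracellular microbes, split the members into a falling and a rising group in WT cells on day 8. Egr1, the zinc finger factor that MAP kinases induce, fell most, from 6.80, 14.2 and 22.4 CPM to 0.965, 1.64 and 1.93 CPM (-3.28 ± 0.48, adjusted p = 0.00042, edgeR). Fos fell from 44.0, 104 and 88.7 CPM to 23.9, 24.9 and 26.0 CPM (-1.66 ± 0.31, adjusted p = 0.0020). Ier2 fell from 25.2, 31.0 and 36.2 CPM to 8.36, 7.59 and 11.8 CPM (-1.73 ± 0.40, adjusted p = 0.0065). Treated values of all 3 were below every untreated value. Jun went from 126, 128 and 129 CPM to 79.1, 72.6 and 82.0 CPM (-0.71 ± 0.11, adjusted p = 0.00076), a small fall that stands far outside a tight replicate spread. Junb, an AP-1 subunit that often opposes Jun, rose from 67.3, 111 and 96.2 CPM to 141, 196 and 202 CPM (0.97 ± 0.21, adjusted p = 0.0048). Atf3 rose from 104, 140 and 115 CPM to 222, 266 and 227 CPM (0.99 ± 0.19, adjusted p = 0.0022). So within one bZIP family Fos and Jun fell while Junb and Atf3 rose.

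Egr2 passed as well (-0.83 ± 0.27, adjusted p = 0.032), but not with the replicate number as a block (-0.81, adjusted p = 0.054). The WT libraries paired by number, but the block was shared with the cKO libraries, which did not (r of -0.20 for same numbers). Egr2 kept its call in 2 of 6 fits that left out a library, with adjusted p of 0.085 to 0.11 in those that lost it. Egr3 (0.99 ± 0.37), Fosb (-2.37 ± 0.92) and Nr4a1 (-1.57 ± 0.68) did not pass, with adjusted p of 0.055 to 0.093. The groups of all 10 members did not overlap, against 62% of the 13075 genes tested. The 7 calls, 2 higher and 5 lower, stand beside 40.1% of all genes called in either direction. Egr1, Fos, Jun, Ier2, Junb and Atf3 kept their calls without any one of the 6 libraries.

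In cKO cells, with 2 libraries a group, 3 members passed, against 33.6% of genes. Atf3 rose from 146 and 144 CPM to 221 and 354 CPM (0.99 ± 0.23, adjusted p = 0.0092), and Junb rose from 92.6 and 113 CPM to 206 and 165 CPM (0.85 ± 0.26, adjusted p = 0.031). Jun fell from 153 and 155 CPM to 111 and 119 CPM (-0.42 ± 0.14, adjusted p = 0.042). These directions match those of the same genes in WT. Placing both libraries with conflicting labels by their title ended all 3 calls (adjusted p = 0.995 each), and placing them by library name gave 6. Without either untreated cKO library all 3 calls were lost too, at adjusted p of 0.069 to 0.19, and Junb was also lost without IFNγ replicate 1 (0.052).

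Egr1, Fosb, Nr4a1 and Ier2 differed widely in CPM between the 2 treated cKO libraries. Ier2 was at 38.0 and 8.95 CPM in them against 23.1 and 26.7 CPM untreated. Nr4a1, a receptor-like factor induced by growth and antigen signals, was at 9.06 and 0.707 CPM against 3.82 and 4.01 CPM, and Egr1 was at 6.04 and 2.59 CPM against 5.36 and 4.60 CPM. In each case replicate 1, the library with the smaller share of counts on macrophage markers described above, was the high one. In reads, replicates 1 and 2 held 10 and 22 for Egr1, 15 and 6 for Nr4a1, 63 and 76 for Ier2, and 4 and 0 for Fosb. Replicate 1 had 3614967 counts on genes, and its CPM rest on the TMM scaling of that library. How much of the gaps came from the scaling was not tested. Each fit without one of the 2 treated cKO libraries rests on 1 treated cKO library, which is assumed to vary like the other groups. Without replicate 1, Ier2 (-1.45, adjusted p = 0.0028) and Nr4a1 (-2.42, adjusted p = 0.0068) passed as lower, and so did Fosb, which had 2.41 CPM in replicate 1 and no read in replicate 2. Without replicate 2 the fitted direction turned for Egr1 (0.24), Ier2 (0.58), Nr4a1 (1.18) and Fosb (0.36).

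The difference of the IFNγ response between genotypes passed for no gene at all (0%). The largest among members was Egr1, 2.78 ± 0.80 on the log2 scale (adjusted p = 0.42), then Ier2, 1.44 ± 0.65. Both had an unadjusted p under 0.05, and DESeq2 called no member. Without cKO IFNγ replicate 2, which leaves the library that stood apart as the only one of its group, the difference passed for Nr4a1, Egr1 and Ier2, with adjusted p of 0.0082, 0.041 and 0.0012. Between untreated cKO and WT cells no member passed (0.612% of genes, 2 members at an unadjusted p under 0.05, DESeq2 none), where Egr1 was at 5.36 and 4.60 CPM in cKO and above both in every WT library. After IFNγ Jun passed as higher in cKO, 111 and 119 CPM against 79.1, 72.6 and 82.0 CPM (0.56 ± 0.13, adjusted p = 0.038), beside 3.20% of genes. That call was lost without any one of the 3 WT IFNγ libraries, at adjusted p of 0.089 to 0.11.

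**Figure D3:**
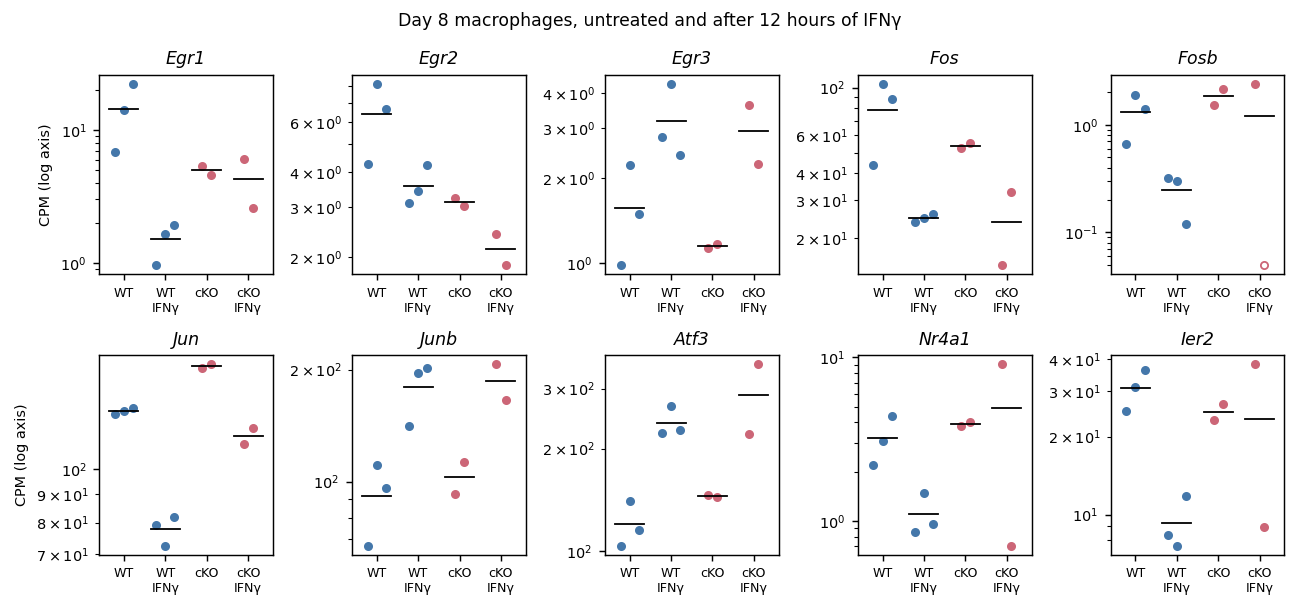
CPM (log axis) of the 10 genes in WT (blue) and cKO (red) day 8 BMDMs without and with 12 hours of IFNγ; points are libraries, bars group means, and an open point is a library at 0 CPM drawn at 0.05. In WT, Egr1 drops from 6.80 to 22.4 CPM to 0.965 to 1.93 CPM while Junb and Atf3 rise above all untreated values, and the pair of treated cKO points lies far apart for Ier2, Nr4a1, Egr1 and Fosb.

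Peritoneal macrophages asked whether the genotype mattered in cells taken from the animal. No member passed (0.971% of 12361 genes; 1 member at an unadjusted p under 0.05; DESeq2 none). Egr3 and Fosb were too low to be tested, at 0 to 0.365 CPM and 0 to 0.130 CPM. Jun was at 17.4, 16.9 and 23.9 CPM in WT and 16, 13.7 and 11.2 CPM in cKO, without overlap (-0.50 ± 0.22, adjusted p = 0.53). Junb had 175, 193 and 172 CPM against 176, 215 and 175 CPM, a fold of 0.07 ± 0.15. Egr1 varied within the cKO group, 4.49, 15 and 5.59 CPM, around WT values of 11.8, 9.58 and 12.9 CPM. Ier2 had 92.7, 106 and 92.2 CPM in WT and 90.3, 86.3 and 80.2 CPM in cKO, again without overlap, and 15% of all genes did not overlap.

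The antibody experiment asked what blocking the type I interferon receptor did to the genotype difference. Without antibody, 8 of the 10 members were lower in cKO with groups that did not overlap, against 39.4% of 17191 genes in either direction, and 3 passed, against 3.72% lower over all genes. Fosb, a Fos relative that accumulates with repeated stimulation, fell from 919, 1156 and 1310 CPM to 425, 474 and 481 CPM (-1.29 ± 0.21, adjusted p = 0.0027). Junb fell from 1046, 1537 and 1342 CPM to 682, 653 and 689 CPM (-0.96 ± 0.22, adjusted p = 0.019), and Egr2 is given above. Fos was at 1438, 2526 and 1762 CPM in WT and at 1066, 928 and 983 CPM in cKO (-0.94 ± 0.31, adjusted p = 0.077). Atf3 was at 570, 760 and 689 CPM against 411, 403 and 425 CPM (-0.71 ± 0.21, adjusted p = 0.056). WT replicate 2 was the highest of the WT group for Fos, Junb and Atf3. Nr4a1 went the other way, 208, 82.2 and 126 CPM in WT and 169, 227 and 213 CPM in cKO, with overlap. Fosb kept its call without any library, Junb only without WT replicate 1 (otherwise adjusted p of 0.067 to 0.10). Without WT replicate 1, Fos (-1.11, adjusted p = 0.036) and Atf3 (-0.81, adjusted p = 0.029) passed as well.

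With the control antibody Fosb was at 562, 692 and 736 CPM in WT and at 197, 209 and 170 CPM in cKO, a fall of 1.79 ± 0.22 on the log2 scale (fold change -1.79, adjusted p = 0.00024). Junb fell from 859, 1044 and 1049 CPM to 579, 569 and 447 CPM (-0.89 ± 0.22, adjusted p = 0.034), a call that each of the 6 fits without a library lost, at adjusted p of 0.063 to 0.16. These 2 of 10 members stand beside 1.57% of genes called lower. Groups did not overlap for 7 members, against 36.7% of genes, with Fos at 1295, 1546 and 1308 CPM in WT and 863, 862 and 726 CPM in cKO. With the IFNAR1 antibody none passed (0.675% of genes, 1 member at an unadjusted p under 0.05, DESeq2 none), and Fosb was at 825, 414 and 721 CPM in WT and 587, 440 and 478 CPM in cKO. No member's groups were apart there, and only 8.67% of all genes had groups that did not overlap in that arm. The fitted log2 difference of Egr1 there was 0.23 ± 0.64 and that of Fosb -0.38 ± 0.21.

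**Figure D4:**
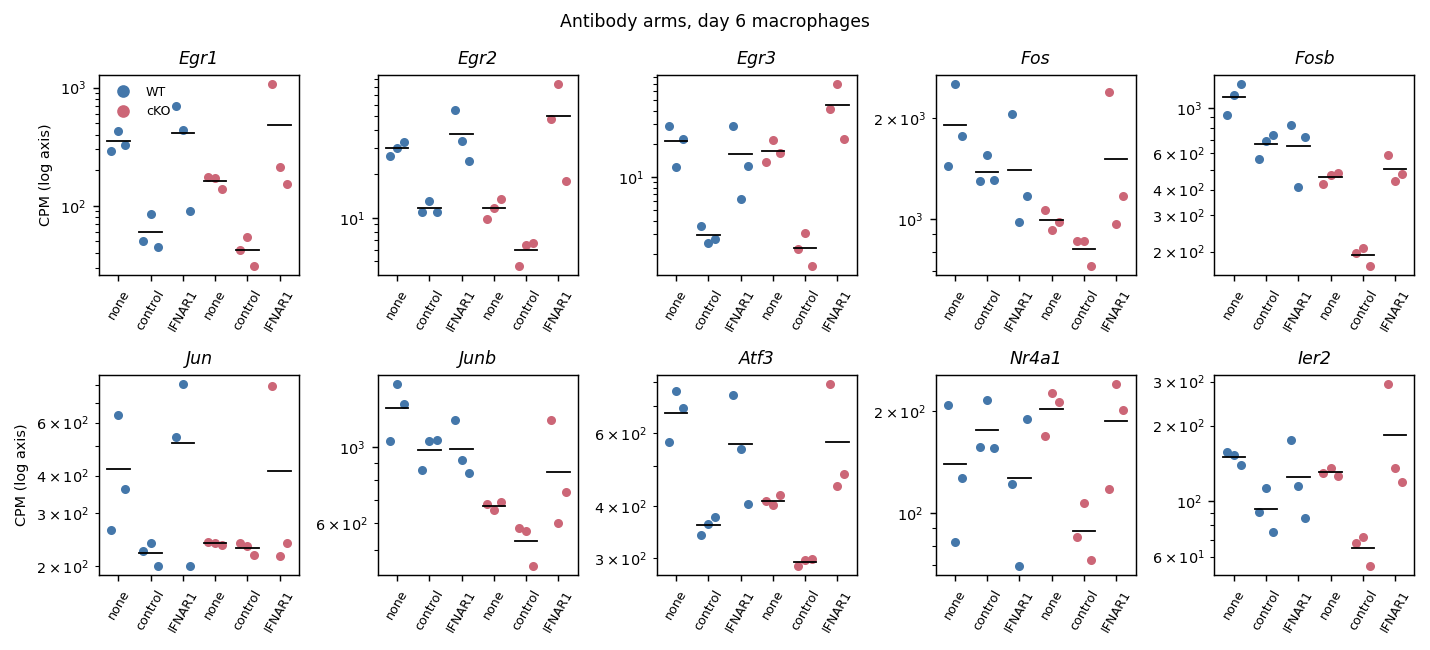
CPM (log axis) of the 10 genes in WT (blue) and cKO (red) BMDMs with no antibody, control antibody or IFNAR1 antibody; points are libraries and bars group means. Fosb in cKO runs from 425 to 481 CPM without antibody to 170 to 209 CPM with the control antibody and 440 to 587 CPM with the IFNAR1 antibody, and Egr1, Egr2 and Egr3 are lowest with the control antibody in both genotypes.

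In WT cells Egr genes were lower with the control antibody than without antibody. The antibody and the additions made every 12 hours cannot be told apart in this comparison. Egr3 fell from 28.9, 12.3 and 21.9 CPM to 3.57, 2.49 and 2.75 CPM (-2.84 ± 0.53, adjusted p = 0.0077). Egr1 fell from 293, 430 and 329 CPM to 50.5, 84.4 and 44.6 CPM (-2.55 ± 0.68, adjusted p = 0.033), and Egr2 by 1.37 ± 0.40 (fold change -1.37, adjusted p = 0.044). Fosb (-0.77 ± 0.21, adjusted p = 0.038) and Atf3 (-0.90 ± 0.21, adjusted p = 0.020) fell too, so that 5 of 10 passed, against 5.63% of genes called lower. None of the 3 Egr genes overlapped between the groups, and 42.1% of all genes did not overlap either. Egr3 kept its call in 5 of 6 fits without a library (lost without WT control antibody replicate 2, adjusted p = 0.063), and the other 4 kept theirs only without WT no antibody replicate 1, with adjusted p of 0.065 to 0.14 otherwise. In cKO cells Egr3 fell from 13.6, 21.7 and 16.5 CPM to 2.22, 3.07 and 1.56 CPM (-2.96 ± 0.55, adjusted p = 0.024) and Fosb fell (-1.26 ± 0.21, adjusted p = 0.016), against 0.797% of genes. Both kept the call in 2 of 6 fits without a library, the rest giving 0.085 to 0.17.

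The IFNAR1 antibody stood above the control antibody for the Egr genes, a comparison that shares the control libraries with the one before it. In WT cells Egr1 rose to 705, 436 and 90.5 CPM (2.78 ± 0.69, adjusted p = 0.022), Egr2 to 55.4, 33.8 and 24.4 CPM (1.70 ± 0.40, adjusted p = 0.017) and Egr3 to 29.1, 6.34 and 12.6 CPM (2.46 ± 0.52, adjusted p = 0.010). These were 3 of 10 members, against 6.83% of genes called higher. In cKO cells Egr1 was at 1079, 211 and 152 CPM against 42.2, 54.0 and 31.0 CPM with the control antibody (3.51 ± 0.71, adjusted p = 0.017). Egr2 rose by 3.09 ± 0.43 (adjusted p = 0.0030) and Egr3, from 2.22, 3.07 and 1.56 CPM to 41.1, 70.1 and 22.1 CPM, by 4.32 ± 0.57 (adjusted p = 0.0029). Fosb (1.39 ± 0.22, adjusted p = 0.0048), Atf3 (0.96 ± 0.21, adjusted p = 0.023) and Ier2 (1.49 ± 0.30, adjusted p = 0.016) also rose, which made 6 of 10 against 2.34% of genes. The 3 cKO libraries of the IFNAR1 arm were far apart: replicate 1 was highest for Egr1, Fos, Fosb, Jun, Junb, Atf3 and Ier2, and replicate 2 for Egr2, Egr3 and Nr4a1.

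Egr2, Egr3 and Fosb kept their calls in cKO without any library. Without cKO IFNAR1 antibody replicate 1, Egr1 (2.11, adjusted p = 0.077), Atf3 (0.66, adjusted p = 0.11) and Ier2 (0.98, adjusted p = 0.059) did not pass. These calls were also lost without cKO control antibody replicate 2 or 3, at adjusted p of 0.065 to 0.10, and that of Atf3 without replicate 1 (0.054). Without the number 1 libraries of both IFNAR1 arms, an alternative chosen after the values were seen, all 3 passed at the same folds, with adjusted p of 0.046 for Egr1, 0.037 for Atf3 and 0.014 for Ier2. In WT the 3 calls were kept in 1 of 6 fits for Egr1, 2 for Egr2 and 3 for Egr3, with adjusted p of 0.054 to 0.11 otherwise. The difference of the antibody effect between genotypes passed for no gene (0%), with 5 members at an unadjusted p under 0.05, led by Fosb (1.41 ± 0.30, adjusted p = 0.24). DESeq2 called Fosb. Set beside the cultures without antibody, which were not compared with the IFNAR1 arm by a test, Egr1 had 293 to 430 CPM without antibody and 90.5 to 705 CPM with the IFNAR1 antibody in WT.

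The control antibody libraries differed from the rest in other measures. Mitochondrial genes took 0.333 to 0.674% of counts in the WT control antibody libraries against 1.17 to 1.30% without antibody and 1.07 to 2.11% with the IFNAR1 antibody, and 0.646 to 0.966% in the cKO control antibody libraries against 1.09 to 1.25% and 1.20 to 2.16%. The summed level of 8 stromal markers was 101 to 350 CPM in WT and 281 to 563 CPM in cKO with the control antibody, against 40.1 to 146 CPM and 74.8 to 127 CPM without antibody. The 8 macrophage markers were at 3737 to 3777 CPM in WT and 3553 to 4144 CPM in cKO with the control antibody, against 4321 to 5537 CPM without antibody in WT. Their part in the Egr and AP-1 values was not tested.

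The sets of WT and cKO BMDMs gave Jun as the one member that passed in set 1. Jun was at 197, 144 and 161 CPM in WT and at 240, 201 and 236 CPM in cKO, without overlap (0.43 ± 0.11, adjusted p = 0.0044), and it kept the call without any of the 6 libraries. With the replicate number as a block within each set, an alternative chosen after the values were seen, Fosb (1.39, adjusted p = 0.042) and Egr2 (-0.89, adjusted p = 0.049) passed as well. With all libraries and no block, 1 of 10 called higher compares with 18% of all 18083 genes in that direction. In set 3 Jun was at 230, 159 and 161 CPM in WT and 216, 231 and 221 CPM in cKO (0.28 ± 0.11, adjusted p = 0.060), and no member passed, against 34.9% of genes. There were 2 members at an unadjusted p under 0.05, and DESeq2 called Jun. With the replicate number as a block, Jun passed at 0.29 (adjusted p = 0.041). The libraries of set 3 paired by number, but that block was shared by all groups, those of set 2 among them, which did not pair. With a block within each set Jun (0.30, adjusted p = 0.018) and Egr2 (-0.999, adjusted p = 0.029) passed. In set 2 Jun was at 196, 173 and 185 CPM against 182, 193 and 179 CPM.

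One library in each of 4 groups set most of the immediate early values. In the number 1 WT library of set 1, Egr1 was at 430 CPM against 66.9 and 48.6 CPM in the others, Fos at 464 CPM against 67.3 and 67.4 CPM, and Ier2 at 237 CPM against 47.7 and 69.3 CPM. In the number 1 WT library of set 3, Egr1 was at 593 CPM against 54.0 and 40.0 CPM, Fos at 626 CPM against 65.5 and 60.1 CPM, and Ier2 at 304 CPM against 54.1 and 52.1 CPM. The number 1 cKO libraries were high too, with Egr1 at 196 CPM against 27.3 and 49.4 CPM in set 1 and at 158 CPM against 42.7 and 45.1 CPM in set 3. More than 2 times the mean of the other libraries of the group was reached by 8 members in WT set 1, 7 in cKO set 1, 8 in WT set 3 and 6 in cKO set 3. Over all genes above the filter the same share was 1.49%, 0.263%, 2.86% and 0.304%. Across the 18083 genes the deviations of same-numbered libraries of sets 1 and 3 had r of 0.68, 0.71 and 0.05 for WT numbers 1, 2 and 3 and 0.53, 0.21 and 0.45 for cKO, and the labels do not say whether the sets share cultures.

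Without the number 1 libraries of sets 1 and 3, an alternative chosen after the values were seen, several members were higher in cKO. Those libraries were left out because members were high in them, so the adjusted p below describe the fit and support no finding. Fos was then at 67.3 and 67.4 CPM in WT and 112 and 143 CPM in cKO of set 1 (0.93, adjusted p = 5.1e-06), and at 65.5 and 60.1 CPM against 140 and 138 CPM in set 3 (1.19, adjusted p = 3.6e-07). Fosb was at 0.782 and 1.53 CPM against 5.06 and 5.65 CPM in set 1 (2.29, adjusted p = 0.00020) and at 0.546 and 0.999 CPM against 5.10 and 4.49 CPM in set 3 (2.68, adjusted p = 8.2e-05). Both AP-1 genes were then clear of overlap, with 2 libraries a group. With all libraries, 41.4% of all genes in set 1 and 43.2% in set 3 did not overlap either. The shares of all genes under this alternative are not given here. Jun passed in both sets (0.53 and 0.54), and Nr4a1 passed in set 3 (1.37, adjusted p = 0.0017). With all libraries the fitted values of Fos were -0.04 ± 0.66 and -0.41 ± 0.66, so the calls depended on 1 library a group.

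**Figure D5:**
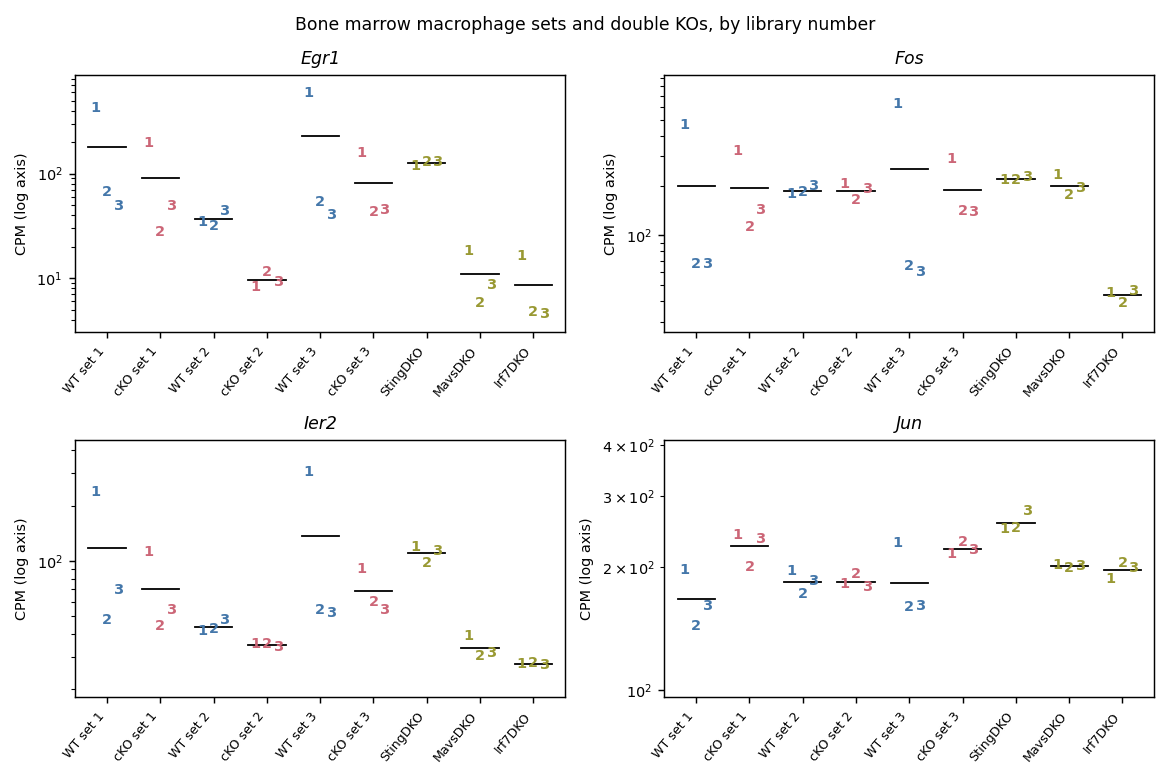
CPM (log axis) of Egr1, Fos, Ier2 and Jun in the WT and cKO sets and the double KOs, each library drawn as its replicate number, with bars for group means. The number 1 libraries of sets 1 and 3 stand far above numbers 2 and 3 for Egr1, Fos and Ier2, with Fos at 464 and 626 CPM in WT against 60.1 to 67.4 CPM, and Jun shows no such gap.

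The double KOs asked whether a sensor or factor of the interferon pathway altered the cKO state. Tmem173, which encodes Sting, was at 5.01 to 6.10 CPM in StingDKO against 68.2 to 91.6 CPM in the cKO sets, and Irf7 at 98.3 to 112 CPM in Irf7DKO against 249 to 470 CPM. Mavs was at 37.2 to 37.9 CPM in MavsDKO and 36.0 to 51.6 CPM in the cKO sets, and counts per gene do not show which exons are read, so they give no check of the Mavs deletion. The comparisons share the 9 cKO libraries, those of set 2 among them. Set 2 chose the members, so the adjusted p of the double KO comparisons are not independent of that choice.

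In StingDKO, Jun rose to 248, 250 and 275 CPM, above all cKO libraries of the sets at 179 to 240 CPM (0.30 ± 0.09, adjusted p = 0.013), the one call of 10 against 18.9% of genes higher. It was lost without StingDKO replicate 3 (0.24, adjusted p = 0.10). Against the cKO libraries of set 1 alone or of set 3 alone no member passed. Set 2, which chose the members, had the lowest Jun of the 3 cKO sets, at a mean of 185 CPM against 226 CPM in set 1 and 222 CPM in set 3. Whether the call depended on set 2 or on the larger number of cKO libraries in the pool was not tested. Egr1 was at 118, 130 and 130 CPM in StingDKO, in a cKO range of 8.14 to 196 CPM (1.60 ± 0.65, adjusted p = 0.057), and Ier2 at 119, 97.6 and 113 CPM (1.0 ± 0.40, adjusted p = 0.052). Both passed without the number 1 cKO library of either set 1 or set 3, Egr1 at adjusted p of 0.016 and 0.026 and Ier2 at 0.024 and 0.044.

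In Irf7DKO, Fos fell to 44.8, 39.1 and 46.0 CPM, below all cKO libraries of the sets at 112 to 325 CPM (-2.13 ± 0.62, adjusted p = 0.030). All 10 members had negative fitted values there. One call of 10 stands beside 5.50% of genes called lower, and 4 members without overlap (Fos, Fosb, Junb and Ier2) beside 6.48% of genes. Fosb was at 2.74, 1.48 and 1.41 CPM and Junb at 81.8, 88.5 and 87.2 CPM, neither past the threshold (-1.79 ± 0.75 and -0.83 ± 0.33). The call for Fos was lost without any one of the Irf7DKO libraries, at adjusted p of 0.089 to 0.13 and folds of -2.18 to -2.06, and was kept without any one cKO library. Against the cKO libraries of set 3 alone no member passed. Egr1 was at 16.4, 4.78 and 4.58 CPM (-2.28 ± 0.84, adjusted p = 0.091), and DESeq2 called Egr1, while it gave no p for Fos. H3f3b was also lower in Irf7DKO, 71.9 to 147 CPM against 187 to 220 CPM in the cKO sets, and its part was not tested.

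In MavsDKO no member passed (8.79% of genes, 2 members at an unadjusted p under 0.05, DESeq2 none). Egr1 was at 18.4, 5.83 and 8.61 CPM (-1.93 ± 0.81, adjusted p = 0.16). Against cKO set 1 or set 3 alone it passed, at -3.06 and -2.91, and against set 2 alone the fold was 0.18, so the value depended on which set was taken. Egr2 was at 2.50 to 4.80 CPM in MavsDKO, 4.97 to 6.14 CPM in StingDKO and 1.79 to 7.26 CPM in Irf7DKO, against 2.56 to 17.3 CPM in the cKO sets.

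Genes around the members were read from 4 lists, 22 other immediate early genes, 13 bZIP partners, 16 genes of the signal input and 12 of feedback. Beside 40.1% of all genes, IFNγ in WT cells raised 8 and lowered 6 of 20 tested other immediate early genes (Maff 1.78, Myc -2.36, Arc -2.35), raised 7 and lowered 2 of 13 bZIP partners (Batf2 6.49, Jdp2 2.34, Crem 2.18), raised 2 and lowered 5 of 10 feedback genes (Dusp4 -3.80, Dusp1 -2.54, Dusp6 -1.40) and raised 3 and lowered 3 of 16 input genes (Csf1 1.51, Elk3 -0.84). Dusp4 and Dusp1 encode phosphatases that switch off MAP kinases, and Batf2 is an interferon-induced partner of Jun proteins. In cKO cells, beside 33.6% of all genes, IFNγ raised 7 and lowered 3 of 20 other immediate early genes, raised 6 of 13 bZIP partners, and raised 3 and lowered 4 of 10 feedback genes, with Klf4 at 3.25, Batf2 at 5.70 and Dusp4 at -2.29.

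From day 3 to day 7 WT cells lowered 7 of 21 other immediate early genes (Fosl1 -3.98, Nr4a3 -3.00, Trib1 -2.04) and 5 of 12 feedback genes (Spry4 -2.60, Dusp5 -2.46, Dusp4 -1.87), beside the 11.7% given above. In cKO cells 7 of 21 other immediate early genes fell (Nr4a3 -3.71, Ier3 -1.85, Maff -1.36), beside 7.70% of genes called lower. Between genotypes Csf1, the ligand that drives macrophage growth, was higher in cKO on day 3 (2.75), on day 5 (2.0), on day 8 untreated (1.46) and after IFNγ (1.43), with the control antibody (2.78), in set 1 (1.92) and in set 3 (1.90). No input gene passed on day 7, in peritoneal cells or with the IFNAR1 antibody. Without antibody Csf1 was not among the 3 input genes with the largest change past the threshold (0.50 to 0.54). Dusp1 was lower in cKO without antibody (-0.54) and with the control antibody (-0.58), as were Klf4 (-0.84 and -1.14) and, with the control antibody, Nr4a3 (-1.40). In set 1, where 18% of all genes were higher, the cKO cells had 6 of 12 feedback genes higher (Dusp5 1.57, Dusp4 1.16, Dusp1 1.12) and 6 higher and 1 lower of 21 other immediate early genes (Nr4a3 3.14, Nr4a2 1.69, Rgs1 1.55). In set 3 these counts were 5 higher and 1 lower, and 7 higher and 2 lower, beside 34.9% of all genes called. With the IFNAR1 antibody Arc, an immediate early gene of the cytoskeleton, rose over the control antibody in WT (2.89) and in cKO (2.48), beside Btg2 (1.49) and Klf2 (1.42) in cKO. In Irf7DKO Dusp1 (-1.33) and Nr4a3 (-1.29) were lower than in the cKO sets, beside 5.50% of genes called lower. Nr4a3 was lower in MavsDKO too (-1.82), beside 3.24% of genes called lower. It had few reads, with a mean log2 CPM of -0.29, and its groups overlapped in Irf7DKO but not in MavsDKO.

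Across the 79 placed libraries, centred within each experiment, 8 members could be compared, since Egr3 and Fosb were not tested in peritoneal cells. Among their 28 pairs Egr1 and Ier2 were the pair of members that moved most alike (Pearson r = 0.88), followed by Nr4a1 with Ier2 (0.70), Egr1 with Egr2 (0.63), Junb with Atf3 (0.59) and Fos with Ier2 (0.59). Atf3 and Nr4a1 were the least alike (-0.02). Among 11170 genes tested in all 5 experiments, members aside, Egr1 was most like Btg2 (0.79), Zfp36 (0.67) and Fam214a (0.63), and Fos like Dusp1 (0.71), Zfp36 (0.69) and Osm (0.59). Egr2 was most like Ralgps2 (0.68), Mamld1 (0.65) and Stab1 (0.65), and Atf3 like Atf4 (0.78), Klf6 (0.76) and Sertad1 (0.75). Zfp36 stood among the genes most like both Egr1 and Fos. The libraries share treatments, genotypes and the few high libraries described above. Among the 79 are also the libraries of the comparison that chose the members, in which Egr2 was the largest fall. The values of the members, and of Egr2 in particular, are therefore not free of that choice. How much of the likeness came from those libraries was not tested. All these values describe the data and carry no test.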

How the data were processed

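The authors deposited one table of gene counts per library, made with STAR on the mouse genome mm10 after cutadapt, as the submitters' processing notes name them, with no version given. Column 2 (reads counted without regard to strand) was used. rRNA was depleted and NEBNext Ultra II libraries were made. For peritoneal cells the methods name SMART-Seq v4 and the labels the depletion kit. Each of the 5 experiments was fitted separately in edgeR 4.0.16 (R 4.3.3; TMM scaling, filterByExpr, glmQLFit and glmQLFTest on all groups of the experiment, 1 mean per group), with Benjamini-Hochberg adjustment over all genes and a threshold of 0.05. CPM of single genes were scaled the same way, and CPM summed over marker lists were taken per total count on genes, without TMM. Replicates are labelled biological, without naming the animals. DESeq2 1.42.0, the replicate number as a block, other filters, scalings and a strand column, and each library left out in turn were alternatives. Except where a block within each set is named, the block gave a replicate number the same term in all groups of an experiment, paired or not. Same numbers were taken to pair libraries where the correlation of their deviations passed 0.1 in all 3 pairs, which held for cKO over the days (0.158 to 0.432), IFNγ in WT (0.499 to 0.587), sets 1 and 3 (0.179 to 0.417), control antibody against none in WT, and cKO against WT on days 3, 5 and 7, in peritoneal cells and with the control antibody. The pipeline was tested on simulated counts. The naming rule takes all 10 members in each comparison, and those on which a result turns are given with values. From each of the 4 lists around them, up to 3 genes with the largest change past the threshold are named, and the 3 genes most like Egr1, Egr2, Fos and Atf3. One gene that this rule names is not reported here. The members and lists were chosen with earlier results of these data known.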

Additional observations from a re-analysis of the deposited data

Results flagged for a closer look

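Of the 2 day 8 cKO libraries whose title and library name disagree on IFNγ, and which entered no comparison, the second held 155 CPM of Junb and 340 CPM of Atf3. Both values lie above every untreated day 8 library, where Junb reached 114 CPM and Atf3 148 CPM, and that is what drew attention to them. The CPM of this library were scaled over all 12 day 8 libraries. Which label is right was not tested.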

How the results depend on the processing

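There were 38 calls of a member outside the comparison of cKO with WT in set 2. Of these, 21 held under every alternative listed at the outset that kept all libraries. When each library was left out in turn, 14 held. Jun in StingDKO and Fos in Irf7DKO are counted there, though their reference included the cKO libraries of set 2. Counts of members called moved as follows, and the cause was not tested. With no filter on low counts, 1 member was called for WT day 5 against 3, WT day 7 against 5, cKO day 7 against 3, cKO against WT on day 5 and on day 8 untreated, and the difference of the IFNγ response; 5 were called without antibody, for control against none in cKO, for IFNAR1 against control in WT, in StingDKO and MavsDKO, 6 in set 1, and 8 in set 3 and Irf7DKO. With only the groups compared, 1 was called for WT day 5 and day 7 against 3, cKO day 7 against 3 and cKO against WT on day 3, 0 after IFNγ, for IFNγ in cKO and for IFNAR1 against control in WT, 2 in MavsDKO, 3 for IFNAR1 against control in cKO, 4 in StingDKO, 5 in Irf7DKO, 6 without antibody, and 7 with the control antibody and for control against none in cKO. DESeq2, which gave no p for Egr3, Fos and Fosb in the sets, called 1 for cKO day 7 against 3, the difference of the IFNAR1 antibody effect and set 3, 4 for control against none in cKO, and 5 without antibody and for IFNAR1 against control in WT. Set 3 had 1 with RLE scaling, with a mean of at least 1 CPM and with the strand column, and StingDKO 2 with the last pair.

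With the replicate number as a block, 1 member was called for cKO day 7 against 3, in set 3 and MavsDKO, 2 in Irf7DKO, 3 in StingDKO and 0 for cKO against WT after IFNγ, and Egr2 in peritoneal cells turned to 0.061 and Fos in set 1 to 0.21. The block changed no other count by over 1.5 times. Placing the conflicting libraries by title gave 0 calls for cKO against WT after IFNγ and for IFNγ in cKO, where Egr1 turned to 0.025, Ier2 to 0.14 and Nr4a1 to 0.58 (0.12 with DESeq2 and 0.028 with the strand column), and placing them by library name gave 6 for IFNγ in cKO. Against set 1 or set 3 alone StingDKO had 0 and MavsDKO 1, against set 3 alone Irf7DKO had 0, and against set 2 alone StingDKO had 3 and Egr1 in MavsDKO turned to 0.18. The fits against set 2 alone carry no test, since that set chose the members. Alternatives chosen after seeing the data were a block within each set (3 and 2 members in sets 1 and 3, Fos turning to 0.43 and 0.41 and Nr4a1 in set 3 to 0.35), leaving out the number 1 libraries of sets 1 and 3 (3 and 4 members, Fos turning to 0.93 and 1.19 and Nr4a1 in set 3 to 1.37, 6 in StingDKO, 3 in MavsDKO, 6 in Irf7DKO) or of the IFNAR1 arms (Egr1 turning to -0.53 for cKO against WT), and a crossed pairing for IFNγ in cKO (2 members, 2051 genes higher and 1950 lower). In set 2, which chose the members and whose counts support nothing, 1 member became 5 with no filter, 7 with only the groups compared, 2 with a block, 3 with a block within each set, 4 without the number 1 libraries, and 1 without any one library.

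Leaving out 1 library gave 2 to 3 members for WT day 7 against 3, 0 to 3 in cKO, 0 to 1 for cKO against WT on day 7, 0 to 4 after IFNγ, 6 to 7 and 0 to 5 for IFNγ in WT and cKO, 0 to 3 for their difference, 1 to 5 without antibody, 1 with the control antibody, 0 to 5 and 0 to 2 for control against none, 0 to 5 and 3 to 6 for IFNAR1 against control, 1 to 2 in set 1, 0 to 4 in set 3, 0 to 3 in StingDKO, 0 to 1 in Irf7DKO and 0 elsewhere. Log2 folds turned for Egr1 (-0.916 to 0.24), Ier2 (-1.45 to 0.58), Nr4a1 (-2.42 to 1.18) and Fosb (-7.12, fitted to 1 library with no read and no bound, to 0.36) for IFNγ in cKO, for Nr4a1 in the difference of that response (-0.82 to 2.76), and for Junb in peritoneal cells (-0.036 to 0.12). They also turned for Egr2 (-0.20 to 0.800) and Egr1 (-1.18 to 0.87) with the IFNAR1 antibody, for Egr2 (-1.80 to 0.067) and Fos (-0.64 to 1.53) in set 1, and for Egr2 (-1.93 to 0.035), Fos (-0.87 to 1.59), Fosb (-0.42 to 3.25) and Nr4a1 (-1.10 to 1.91) in set 3. Fosb and Egr3 had too few reads to be tested in peritoneal cells.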

Other observations

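Both unplaced day 8 cKO libraries can be given only as values. The first held 53.4 CPM of Fos, 149 CPM of Jun, 99.7 CPM of Junb, 137 CPM of Atf3 and 21.5 CPM of Ier2. In the second, Fos was at 32.3 CPM, Jun at 113 CPM and Ier2 at 9.76 CPM. Egr1 was at 4.17 CPM in the first and 1.72 CPM in the second, Egr2 at 2.53 and 1.5 CPM, Egr3 at 0.899 and 1.82 CPM, Fosb at 1.80 and 0.215 CPM, and Nr4a1 at 4.25 and 0.322 CPM.

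Number 1 of the Irf7DKO libraries was more than 2 times the mean of the other libraries of its group for 4 members, among them Egr1 (16.4 against 4.78 and 4.58 CPM) and Egr2 (7.26 against 2.14 and 1.79 CPM), and for 0.796% of the 12811 genes so compared. The WT day 7 library of replicate 2 did so for 3 members and 6.51% of 12750 genes, and the WT day 5 library of replicate 1 held 20.2 CPM of Egr1 against 2.54 and 2.48 CPM.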
